A study of Mus musculus with 2 samples.

Results

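The plasminogen activation and coagulation genes described here are Plau, Plaur and Serpinb2 of the plasminogen system and F3, F13a1 and F10 of the clotting system. They were chosen by name: every probe set (the group of oligonucleotides that reports a transcript on an Affymetrix array) whose only gene symbol in the platform annotation was one of the 6 was taken, and each was read separately. This gave 9 probe sets of 45037 on the array, for 6 of 18193 named genes. No probe set named a member together with another gene.

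Gene expression was profiled on 1 array of ID8-induced myeloid-derived suppressor cells (MDSC) and 1 array of control bone marrow cells. For the MDSC, marrow cells from femurs of C57BL/6 mice were kept for 4 days in a 24-well transwell plate beneath ID8 cells, a mouse ovarian surface epithelial tumour line that the labels write both as ID8 and 1D8. The sample title names tumour cell supernatant instead of co-culture. The control carries the same strain, tissue, medium with 5% FBS and CD11b+Gr1+ phenotype in its labels, which do not state how long it was cultured. Sex and age of the mice are stated for neither sample. How many mice or wells went into each array is not stated, so whether an array stands for 1 culture or a pool is unknown. With 1 array per group there is no replicate error.

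Values below come from the ID8-induced array alone. Each column was split into signals at or above its last value and signals below it, and rises between successive rows were counted in each part. The ID8-induced column held 10622 and 11804 rises, against 0 and 0 in the control column, whose 22626 higher and 22411 lower signals both stood in descending order along the probe set list. The control values therefore cannot be assigned to genes, no fold change was computed, and the values carry no information on a response of any gene to the tumour cells. CD11b is encoded by Itgam, which read 2375. Of the Gr1 antigens, Ly6g, Ly6c1 and Ly6c2 had no probe set named for them alone, so Gr1 was not checked here. In a mixed culture, fewer cells of a type and less RNA per cell cannot be told apart.

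Plasmin is the protease that dissolves fibrin clots and helps cells to move through matrix. Urokinase, the product of Plau, cuts plasminogen into plasmin, and does so at the cell surface when it is bound to its receptor, the product of Plaur. Serpinb2 encodes plasminogen activator inhibitor 2, a serpin of the ovalbumin type that inhibits urokinase and is largely kept inside monocytes and macrophages. Clotting starts when tissue factor (F3), a membrane receptor, binds factor VIIa and activates factor X (F10), which then converts prothrombin to thrombin. Thrombin makes fibrin and activates factor XIII, whose transglutaminase A subunit (F13a1) cross-links the fibrin. Most circulating clotting factors are made in the liver, while tissue factor, factor XIII A and factor X have also been described in myeloid cells.

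The array read the receptor and the inhibitor of the plasminogen system above the signal floor, and read urokinase itself below it. All 3 clotting genes were above the floor, and none of their probe sets fell below the 90th percentile of all probe sets. Among the probe sets with 1 gene symbol, F3 stood at the 88.9th percentile and the dimmest F10 probe set at the 89.8th. The floor is a MAS5 signal of 68.77, the 40th percentile of this array, and is used because no detection calls were given. A percentile says how many of every 100 of the 45037 signals were lower, and places a signal on the array without measuring how abundant a transcript is. In all, 7 of the 9 member probe sets reached the floor, where 63.5% of the 34945 probe sets with 1 gene symbol did, and 6 of the 9 reached the 90th percentile, where 11.3% did. Their median percentile was 90.9, against 53.9 over all probe sets with 1 gene symbol. The 6 genes were listed with earlier results of these data known, and 3 of the 9 probe sets belong to F10, so the difference between these shares was not tested.

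**Figure D1:**
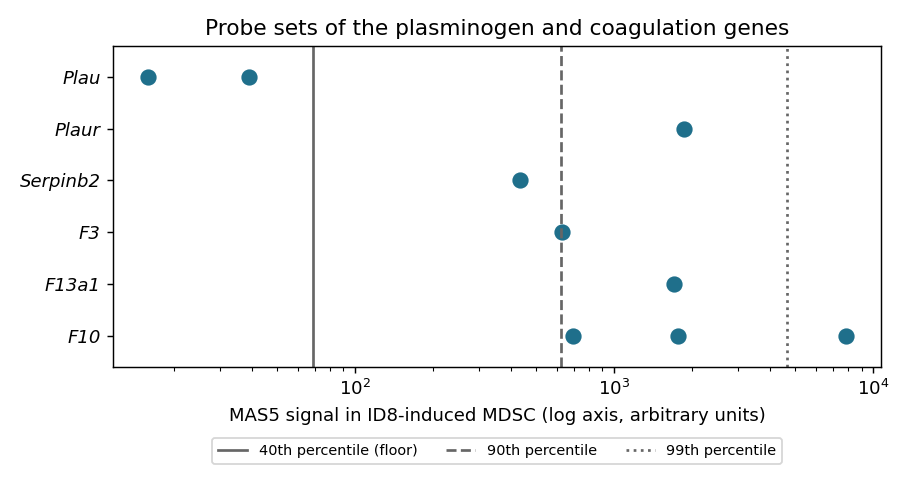
MAS5 signal of each of the 9 member probe sets (1 point per probe set, log axis) in the single ID8-induced MDSC array, with vertical lines at the array's 40th percentile (the floor), 90th and 99th percentile. Both Plau points lie left of the floor, and all 3 F10 points lie right of the 90th percentile line.

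Plaur, the urokinase receptor, was read by 1 probe set (1452521_a_at) at a signal of 1851, 26.9 times the floor and at the 96.6th percentile. On the whole array 1516 probe sets were brighter. The letter a in its identifier marks a probe set that matches several transcripts of the same gene, so it sums them and does not tell the membrane-anchored form from shorter ones. Plau, the receptor's ligand, had 2 probe sets, and neither reached the floor. They read 38.81 (1422138_at) and 15.86 (1422139_at), at the 20th and 4.4th percentile. A signal below the floor does not show that the transcript was absent, since a probe set can hybridise poorly. No ratio is given between signals that both lie below the floor. Serpinb2 read 432 on its 1 probe set (1419082_at), 6.28 times the floor and at the 86.3rd percentile. It was the only member above the floor that did not reach the 90th percentile.

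F3, which encodes tissue factor, read 627 on 1 probe set (1417408_at). This was 9.12 times the floor and at the 90.1st percentile, just past the 90th percentile, a signal of 619.81. F10, the factor X gene, was read by 3 probe sets. Its probe set 1449305_at read 7853, at the 99.6th percentile with 160 brighter probe sets on the array. The other two read 1754 (1418993_s_at, 96.4th percentile) and 692 (1418992_at, 90.9th percentile). All 3 were annotated to the same gene and all lay above the 90th percentile, but they differed 11.4-fold. Among the 2367 genes with 3 probe sets the median ratio of brightest to dimmest was 3.48, and 86.5% of them had a lower ratio than F10. Those genes were taken whether or not their probe sets reached the floor, while all 3 F10 probe sets lay above it. The identifier ending in s marks a probe set whose oligonucleotides can match more than one transcript, possibly of related genes. F13a1, the factor XIII A subunit gene, read 1706 on 1 probe set (1448929_at), 24.8 times the floor and at the 96.3rd percentile.

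The sequence around the annotated start of 4 members is shown: the 3 members whose windows held a match to the AP-1 core, and F10, whose window held no match to any motif searched. Of the 6 members, 5 had a window of 250 bases before to 50 bases after a start site in RefSeq (build GRCm38.p6), Serpinb2 and F13a1 with 2 windows each, 7 windows in all. Windows are printed 5′ to 3′ on the strand of the gene, with matches to TGANTCA, the core bound by AP-1 (Fos and Jun factors), in capitals. For Serpinb2 the upstream one of its 2 starts is shown.
Plaur, chr7:24462233-24462532, plus strand: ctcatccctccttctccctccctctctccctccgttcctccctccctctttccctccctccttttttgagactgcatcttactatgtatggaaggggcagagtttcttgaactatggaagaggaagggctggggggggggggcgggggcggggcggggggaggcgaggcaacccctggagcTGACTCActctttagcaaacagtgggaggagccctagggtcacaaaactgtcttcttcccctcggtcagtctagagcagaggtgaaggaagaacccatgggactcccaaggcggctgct
Serpinb2, chr1:107511173-107511472, plus strand: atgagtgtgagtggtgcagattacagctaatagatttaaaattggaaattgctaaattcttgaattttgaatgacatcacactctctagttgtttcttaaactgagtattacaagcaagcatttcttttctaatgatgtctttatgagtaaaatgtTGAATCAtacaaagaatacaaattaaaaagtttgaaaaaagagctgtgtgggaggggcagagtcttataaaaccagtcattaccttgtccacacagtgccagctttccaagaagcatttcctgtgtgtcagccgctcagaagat
F3, chr3:121723287-121723586, plus strand: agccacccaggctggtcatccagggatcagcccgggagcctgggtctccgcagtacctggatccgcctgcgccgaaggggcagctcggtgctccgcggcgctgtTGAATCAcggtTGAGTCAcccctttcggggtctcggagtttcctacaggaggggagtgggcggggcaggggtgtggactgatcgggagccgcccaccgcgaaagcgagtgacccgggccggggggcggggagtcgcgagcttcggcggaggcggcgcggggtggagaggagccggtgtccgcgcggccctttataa
F10, chr8:13037058-13037357, plus strand: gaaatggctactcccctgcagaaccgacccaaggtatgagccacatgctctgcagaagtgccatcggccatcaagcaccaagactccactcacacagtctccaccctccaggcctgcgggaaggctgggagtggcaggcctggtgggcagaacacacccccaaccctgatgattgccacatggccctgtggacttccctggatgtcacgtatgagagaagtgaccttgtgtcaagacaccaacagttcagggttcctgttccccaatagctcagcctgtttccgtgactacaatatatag

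The letters TGANTCA, which read the same on both strands apart from the middle base, occurred in the windows of 3 of the 5 members, Plaur, Serpinb2 and F3. They occurred in 7.8% of 32851 windows of the same length across the genome's annotated starts. Plaur held 1 match, beginning 69 bases before the start. F3 held 2, beginning 146 and 135 bases before it, and Serpinb2 held 1, beginning 94 bases before the start shown. The same Serpinb2 match lies in the window of its other start, because the windows overlap. Neither F10 nor F13a1 held one.

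Another 4 motifs were searched on both strands. GGGCGG, the GC box bound by Sp1, was found 3 times in Plaur and 3 times in F3, and in 35.7% of all windows. Plaur and F3 were also richer in G and C (59.3% and 70.3% of bases) than Serpinb2 (35.3%), with F10 at 55.7%. TATAAA, the TATA box, began 29 bases before the Serpinb2 start shown and was found in 13.6% of all windows. In F3 it occurred on the opposite strand, 44 bases after the annotated start. The F3 window ends in the letters tataa, so a TATAAA there on the strand of the gene could not be read. TTGCNNAA, a form of the C/EBP site, occurred in Plaur and Serpinb2 and in 10.8% of all windows. GAGGAA, a core of the site of the myeloid factor PU.1, occurred in Plaur and in both F13a1 windows and in 28.3% of all windows. None of the 5 motifs was found in the F10 window. A match is a stretch of letters and not a measured binding site, and a missing match concerns this window alone.

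**Figure D2:**
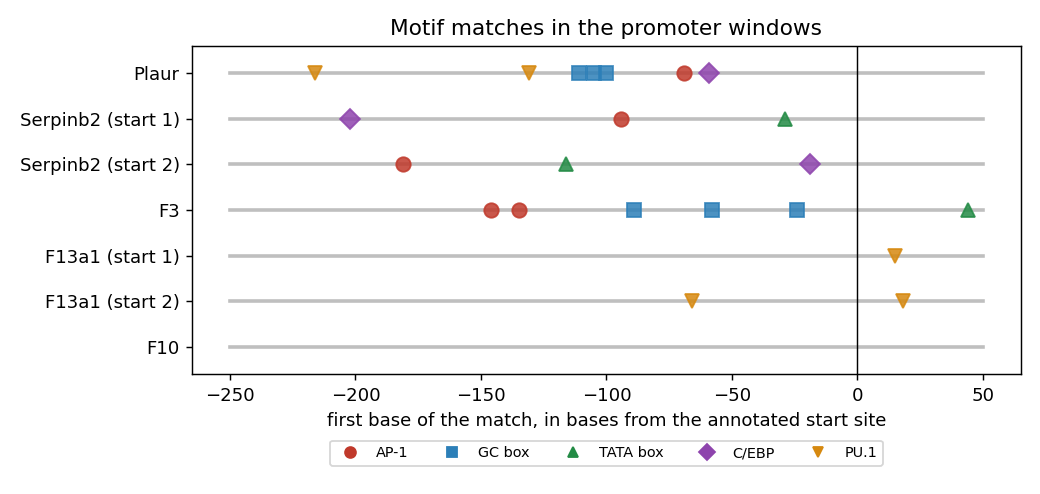
Positions of the matches to the 5 motifs (coloured symbols, first base of each match on either strand) in the 7 promoter windows, from 250 bases before to 50 bases after each annotated start (vertical line at 0). AP-1 matches lie before the start in Plaur, F3 and both Serpinb2 windows, F13a1 holds PU.1 matches alone, and the F10 line is empty.

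Other genes that bring plasminogen to the cell surface or bind urokinase's receptor gave signals on both sides of the floor. The list of other plasminogen system genes held 18, of which 14 were measured by 23 probe sets. Of the 23, 13 reached the floor and 4 the 90th percentile, with a median percentile of 47.1 against 53.9 over all probe sets with 1 gene symbol. For this list and those below, the shares of all such probe sets were 63.5% at the floor and 11.3% at the 90th percentile. The plasminogen list's median was 61.9 with the brightest probe set of each gene, 56.0 with 1 mean value per gene and 44.0 without suffix letters. The side of 53.9 on which this list lay therefore depended on the summary chosen. Its share at the floor was 56.5%, with 87.0% for a floor at the 20th percentile and 43.5% at the 60th. Plgrkt, a membrane receptor for plasminogen, read 4808 on its 1 probe set. Anxa2 (annexin A2), which forms a plasminogen-binding complex with S100a10, read 11943 on one probe set and 48.07 and 27.14 on the other two, so its reading rests on 1 probe set. Thbs1, which encodes the matrix glycoprotein thrombospondin 1, read 5096 and 2026. The other plasminogen activator gene, Plat, lay below the floor at 55.15 and 33.81, and Plg (plasminogen itself, made by the liver) read 30.28. Vtn (vitronectin, a matrix ligand of the urokinase receptor) also lay below it, at 66.3 and 54.67.

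Integrins and formyl peptide receptors act with the urokinase receptor at the leukocyte surface, since that receptor has no cytoplasmic part of its own. The list of the receptor's partners held 8 genes, of which 7 were measured by 10 probe sets, and 6 of these reached the floor. Its integrin and formyl peptide receptor genes accounted for 4 of the 10, all above the floor, and the remaining 6 belong to Vtn, Lrp1 and Mrc2, which the plasminogen system list also counts. Fpr2, a formyl peptide receptor, read 8970.2, and Itgb2, the beta chain that pairs with CD11b, read 6879.8. With Itgam, these 3 genes had a probe set at or above the 90th percentile. The median percentile of the list was 48.4.

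Serpinb2 and F13a1 each belong to a gene family with further members on the array. Of 18 other clade B serpins, 12 were measured by 19 probe sets, of which 6 reached the floor and 1 the 90th percentile, with a median percentile of 18.1, or 43.3 with the brightest probe set of each gene. The 1 was Serpinb1a, which encodes an inhibitor of neutrophil serine proteases, at 1477, while its second probe set read 36.27. Serpinb12, Serpinb1b, Serpinb3a, Serpinb7, Serpinb11 and Serpinb5 lay wholly below the floor. Serpinb7 is one of the protein-coding neighbours of Serpinb2 on chromosome 1 and read 27.78, at the 11.9th percentile. Serpinb10, on the other side, had no probe set named for it alone. Among transglutaminases other than F13a1, 7 of 8 were measured, and 11 of their 14 probe sets reached the floor. Tgm2 (tissue transglutaminase) was the gene of that list at or above the 90th percentile, on 5 of 6 probe sets that read 769 to 5036, with the remaining one at 22.94. Epb42, an erythrocyte membrane protein of the same family without enzyme activity, lay below the floor at 62.72 and 52.74.

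Of 14 other clotting factor genes, 10 lay wholly below the floor, and 6 did with the floor at the 20th percentile. The share of all genes on the array that lay wholly below the floor was not computed, so these gene counts have no background beside them. All 14 coagulation factors and cofactors beyond the members were measured, by 16 probe sets. Of these, 5 (31.2%) reached the floor and 0 the 90th percentile, against 63.5% and 11.3% of all probe sets with 1 gene symbol. The median percentile was 24.7. Below the floor were the 3 fibrinogen chain genes Fga (17.99), Fgb (36.98) and Fgg (41.6), as well as F13b (16.16), the carrier subunit of factor XIII, and F9 (23.4). F7, the gene of the protease that binds tissue factor, lies next to F10 on chromosome 8 and read 355, at the 83.8th percentile. It was picked out after its value was seen, as were Fgg above and Proz, Ly86, Nrn1, Ggcx and Vkorc1 below. On the other side of F10, Proz (protein Z) read 120.67 and 25.49. Beside F13a1 on chromosome 13, Ly86, which encodes the myeloid protein MD-1, read 584, at the 89.4th percentile, and on the other side Nrn1 (neuritin) read 65.49, below the floor.

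Factor X needs vitamin K-dependent carboxylation of its glutamates before it can bind membranes. Of 4 genes of the vitamin K cycle and Gla carboxylation, all were measured, and 5 of 6 probe sets reached the floor, with a median percentile of 64.4 and 0 at the 90th percentile. Ggcx, the carboxylase, read 121.67 and 16.58, so its probe sets disagreed about the floor. Vkorc1, the reductase that warfarin blocks, read 212. Of 12 inhibitors of coagulation and protein C pathway genes, all measured, 9 of 16 probe sets (56.2%) reached the floor, with a median percentile of 45.7. Their share was 25.0% with the floor at the 60th percentile and 75.0% at the 20th. The median became 25.4 over probe sets without a suffix letter. Anxa5 (annexin A5, which binds phosphatidylserine) was the list's 1 gene at the 90th percentile, at 1675. Serpina5, Tfpi2 and Serpina10 were wholly below the floor. The thrombin and related protease-activated receptors F2r, F2rl2 and F2rl3 gave 5 probe sets between 6.26 and 52.7, all below the floor, and F2rl1 had none named for it alone.

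**Figure D3:**
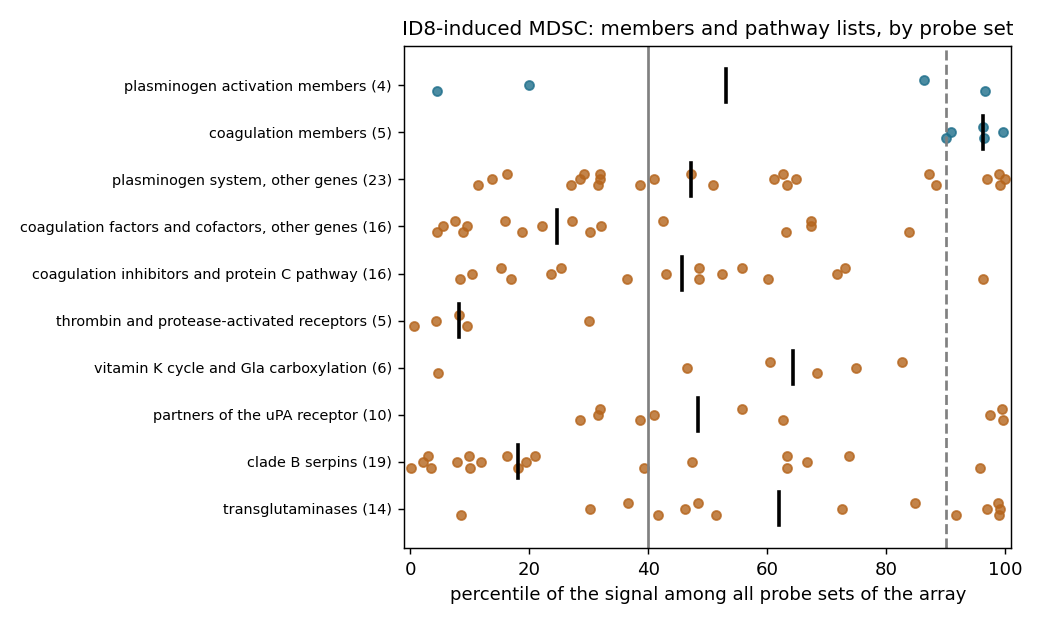
Percentile of each probe set among all probe sets of the ID8-induced MDSC array for the members (blue) and the pathway lists (brown), with the number of probe sets in parentheses, the median of each list as a black bar, the floor as a solid line and the 90th percentile as a dashed line. The 5 probe sets of the coagulation members lie between the 90.1st and 99.6th percentile, and those of the other clotting factors between the 4.5th and 83.8th.

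Each member is also known from cells other than myeloid cells, so marker lists of those cells were read on the same array. Their counts stand beside 63.5% of all probe sets with 1 gene symbol at the floor and 11.3% at the 90th percentile. For the labelled lineage, all 8 measured granulocyte and myeloid markers had signals between 2375 and 24857, and 14 of 18 probe sets of monocyte and macrophage markers reached the floor. Macrophage markers lay on both sides of it. Lyz2 (lysozyme) read 10887, Cd14 10143, Csf1r 4403 on its brightest probe set and Cd68 3597, and Adgre1 (F4/80), singled out after its value was seen, read 1443. Mertk, Mrc1 and Cd163 lay below the floor at 48.62, 35.06 and 17.09. Platelets and their precursors carry factor XIII A. Of 13 megakaryocyte and platelet markers 11 were measured, and 9 of 13 probe sets (69.2%) reached the floor and 0 the 90th percentile. They read 33.32 to 308.34, with Ppbp and Pf4 (platelet chemokines) at 308 and 207. Itgb3 read 203 on its brightest probe set and Itga2b read 175. Tubb1 and Vwf lay below the floor at 56.42 and 33.32. The part of such cells in the F13a1 signal was not tested.

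Hepatocytes make factor X. Of 8 hepatocyte markers 7 were measured by 13 probe sets, which read 8.17 to 172.03. Of these, 4 (30.8%) reached the floor and 0 the 90th percentile, against 63.5% and 11.3% of all probe sets with 1 gene symbol. The 4 were probe sets of Apoa2 (172), Tat (167), Ttr (137) and Apoa1 (121), while Alb (albumin) and Cyp2e1 lay below the floor at 51.17 and 33.67. The list's median percentile was 21.8, and 60.2 with the brightest probe set of each gene. Epithelial cells, stromal cells and endothelium can express tissue factor or urokinase, and ID8 cells stood above the marrow culture. Of 22 probe sets of 12 epithelial, mesothelial and ID8 markers, 12 (54.5%) reached the floor and 0 the 90th percentile. The share was 18.2% with the floor at the 60th percentile and 90.9% at the 20th. They read 3.76 to 239.17, with Cldn3 at 239 on its brightest probe set, and Krt19 and Cdh1 below the floor at 46.03 and 21.57. The 21 probe sets of fibroblast and stromal markers reached the floor in 5 cases (23.8%) and read 14.05 to 790.11. Of these, 1 probe set, of Acta2, reached the 90th percentile, and the dimmest probe set of that gene read 46.17. The fibroblast and stromal share was 71.4% with the floor at the 20th percentile and 9.5% at the 60th. It was 44.4% with the brightest probe set of each gene. Endothelial markers reached the floor in 7 of 12 probe sets (58.3%) and read 24.25 to 2096.33. That highest value was 1 of 4 probe sets of Egfl7. The endothelial share was 75.0% with the floor at the 20th percentile and 33.3% at the 60th. It was also 33.3% over probe sets without a suffix letter. Esam, Pecam1 and Kdr also lay above the floor, at 194.5, 143.6 and 109.7. Tek, Tie1 and Emcn lay below it, at 34.51, 24.35 and 24.25. No marker of these lists was listed at 0, and the part of these cells in the F3, F10 and Plaur signals was not tested.

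Basophil and mast cell markers reached the floor in 10 of 13 probe sets (76.9%), where 63.5% of all probe sets with 1 gene symbol did. The markers' share was 38.5% with the floor at the 60th percentile. Hdc (histidine decarboxylase), which granulocytes also express, read 3658 and 3338, and Mcpt8, a basophil protease, read 254. Gata2 (180.79 and 101.56) and Tpsb2 (160.89 and 72.72) lay above the floor on each probe set. Cpa3 and Fcer1a lay below the floor at 32.34 and 20.21.

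**Figure D4:**
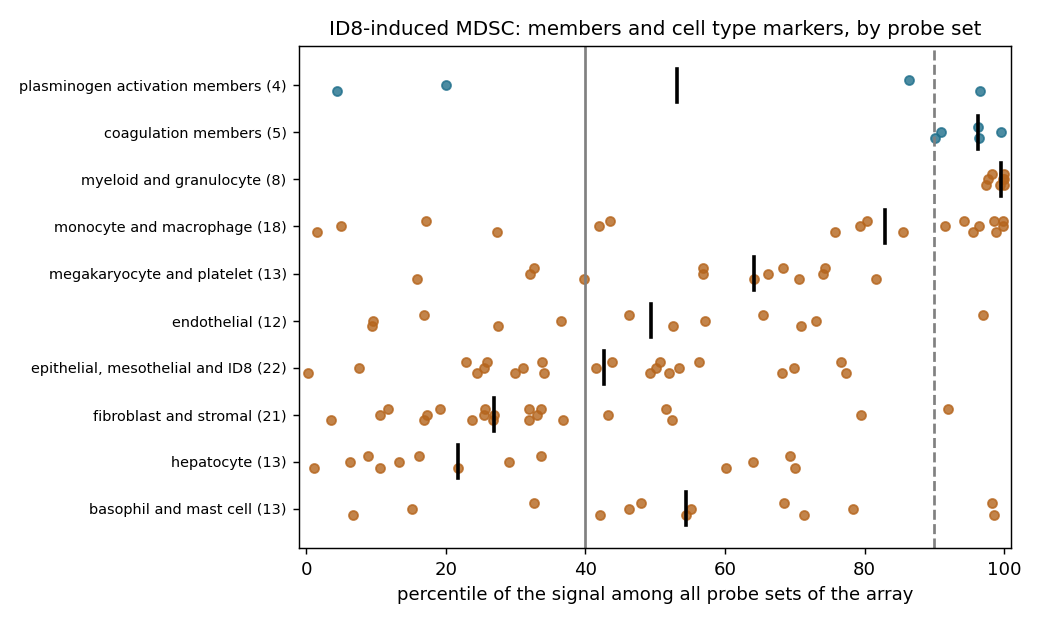
Percentile of each probe set on the ID8-induced MDSC array for the members (blue) and the cell type marker lists (brown), with the number of probe sets in parentheses, medians as black bars, the floor as a solid line and the 90th percentile as a dashed line. Granulocyte markers lie at or above the 97.4th percentile. No platelet, epithelial or hepatocyte marker reaches the 90th, which 11.3% of all probe sets with 1 gene symbol reach.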

How the data were processed

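Per the submitters' processing notes the authors used MAS5, and each deposited value is the linear MAS5 intensity of a probe set. The version, scaling target and detection calls of MAS5 were not given in the sources used here. Per the labels' protocols, 6 ug of total RNA went into biotinylated cRNA. No scaling was added. The platform annotation from GEO gave 34945 probe sets 1 gene symbol, which were used, and left out were 932 with several and 9160 without any. All 6 members matched the RefSeq table by Entrez ID. The floor was the 40th percentile of the array. With 1 array per group there was no test, and the number of arrays limits the precision.

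Pathway and marker lists were summarised by probe set. The members and lists were chosen with earlier results of these data known. Named genes were the 6 members, list genes with a probe set at or above the 90th percentile or wholly below the floor (up to 6 of each kind per list), and for each marker list up to 4 of the brightest and 3 of the dimmest. Exceptions are stated where they occur. The alternatives tried were a floor at the 20th or the 60th percentile, probe sets without a suffix letter, percentiles among named probe sets, and 1 value per gene (mean log2 or brightest). The percentile, order and motif functions were tested on simulated data. Python 3.11.15, numpy 2.4.6, pandas 2.3.3 and matplotlib 3.10.9 were used.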

Additional observations from a re-analysis of the deposited data

Results flagged for a closer look

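The control bone marrow column was set aside as a measured column that no gene-level value uses. The ID8-induced array had a highest signal of 24856.67 and a median of 89.52, and the control column a highest signal of 26083.92 and a median of 92.31. Of 45036 steps from row to row, 49.9% went up in the ID8-induced column and 6.9% in the control column, where values ran in order along the probe sets. No control level is therefore given for Plau, Plaur, Serpinb2, F3, F13a1 or F10.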

How the results depend on the processing

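The count of member probe sets at or above the floor was 7 of 9. It was 8 with the floor at the 20th percentile (a signal of 38.75), where the brighter Plau probe set at 38.81 lay just above, 7 with the floor at the 60th percentile and 5 of the 7 probe sets without a suffix letter, which leave out Plaur. The number of genes with every probe set above the floor was 5 at each of the 3 floors and 4 of 5 without suffixes. Among probe sets with 1 gene symbol in place of all probe sets, member percentiles moved by less than 10 points, but F3 (88.9) and the dimmest F10 probe set (89.8) then lay below the 90th. Over the pathway lists together, the share of probe sets above the floor was 51.0% and stayed within 1.5 times of it under every alternative run. Over the marker lists together the share was 57.5%, and 38.3% with the floor at the 60th percentile. The marker lists' median percentile of 48.6 became 64.1 with the brightest probe set of each gene. Of 16 single lists, the share of probe sets reaching the floor changed more than 1.5 times for 7 at the 20th percentile, 6 at the 60th, 3 with the brightest probe set, 2 without suffixes and 0 with the mean. List medians moved by 10 points or more for 5 lists with the brightest probe set, 5 without suffixes and 1 with the mean. No paired analysis was possible because each group held 1 array and the control values are not tied to probe sets. The cause of these shifts was not tested.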
